A study of Drosophila melanogaster with 20 samples.

Results

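What the loss of RBP9 added to the loss of FNE was measured in heads of adult Drosophila melanogaster, by total RNA sequencing of 5 ΔfneΔrbp9 and 5 Δfne libraries out of 20 in the series. Members were all genes whose mean normalized count (count divided by a size factor per library) was above 10 over these 10 libraries, which kept 10529 of 17558 gene IDs. The last genes inside this limit were CG11269 and lncRNA:CR44051, with mean normalized counts of 10.02 and 10.03. The first genes outside it were Obp58b and CG13622, with 9.986 and 9.989. The other 10 libraries, 5 Δrbp9 and 5 wild type, gave the loss of RBP9 in flies that still had FNE.

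FNE and RBP9 belong, with ELAV, to the ELAV/Hu family of neuronal RNA-binding proteins, whose members bind U-rich and AU-rich stretches of RNA. ELAV acts mainly in the nucleus on splicing and on the choice of polyadenylation site, and FNE and RBP9 are mostly cytoplasmic, where Hu proteins of other animals are known for effects on mRNA stability and translation. Neuronal RNAs also gather in granules with Staufen (Stau), a double-stranded RNA-binding protein. The long noncoding RNA mimi (lncRNA:mimi, CR31451) is the scaffold that the study assigned to one class of these granules.

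In the Δfne group females were fneΔ/fneKOZ2, and males, with their single X chromosome, had either the fneΔ or the fneKOZ2 allele. The ΔfneΔrbp9 flies carried the same X-linked alleles and, on the second chromosome, rbp9P2690 (a P-element insertion) over Df(2L)ED206, a deletion that takes out neighbouring genes as well. The Δrbp9 flies had rbp9P2690/Df(2L)ED206 alone, and wild type was w1118. All heads came from males and females collected 1 day after eclosion and kept at one temperature. The P-element chromosome and the deletion were in every ΔfneΔrbp9 fly and in no Δfne fly, so that loss of RBP9 and the rest of that second chromosome cannot be told apart in this comparison. The genotypes do not say whether the groups share their other autosomes, so differences carried there cannot be told apart from the loss of RBP9 either.

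Total counts ranged from 13482783 to 25325636 in the Δfne libraries and from 10289950 to 18757832 in the ΔfneΔrbp9 libraries. Values below are CPM, a count as a share of the library's total after scaling by edgeR's TMM factors and multiplied by 1000000, as mean ± SD with n = 5 libraries per group. Defining markers of neurons, photoreceptors, glia, fat body and muscle were all detected, and those of testis and male accessory gland were at or near 0. The summed CPM of 5 neuronal markers was 2299 to 2584 in Δfne and 2363 to 2440 in ΔfneΔrbp9. Glial markers summed to 2772 to 3075 against 2357 to 2526, and muscle markers to 8233 to 9412 against 5193 to 6095, so that both of these sums were lower in every ΔfneΔrbp9 library. The muscle sum was mostly 1 gene, Mhc, which gave 9032 of 9066 CPM in Δfne library 1 and 5925 of 6068.5 CPM in ΔfneΔrbp9 library 1. Fat body markers summed to 2505 to 5962 against 3827 to 6054. Midgut markers set 1 library of each group apart: they summed to 404 in Δfne library 5 and 228 in ΔfneΔrbp9 library 5, but to 8.43 to 15.6 and 13.4 to 18.7 in the other 4 libraries of those groups. Ovary and germline markers summed to 15.4 in Δfne library 3 and to 0.0519 to 0.157 in the other Δfne libraries. Without the 2 libraries numbered 5, 688 genes were called, 631 of them among the 718 given below, and without Δfne library 3 the number was 686. By the study's methods each library pooled equal numbers of males and females. The log2 ratio of yolk protein (female) to roX (male) RNAs was 1.48 to 2.48 in Δfne and 1.80 to 2.51 in ΔfneΔrbp9. In Δfne, Yp1 ranged from 1326 to 3016 CPM and roX1 from 926 to 1003 CPM, so the ratio also follows yolk protein levels. With this ratio as a covariate (the sex-mix covariate below), which does not adjust for sex alone, 701 genes were called. In whole heads, fewer cells of a type and less RNA per cell cannot be told apart, and the part of these shifts in the results below was not tested unless a value is given.

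The targeted genes matched the labels. Rbp9 (chromosome arm 2L, bases 2954762 to 2968434) had 550.4, 616, 609, 617 and 599 CPM in the 5 Δfne libraries and 18.5, 19.3, 16.7, 20.1 and 17.1 CPM in the 5 ΔfneΔrbp9 libraries (log2 fold change −5.03 ± 0.058 (SE), edgeR adjusted p = 2.76e-14). fne (chromosome arm X, bases 12917477 to 12950417) was at 194 ± 13.4 CPM in the wild type libraries, 86.7 ± 9.11 CPM in Δfne and 88.1 ± 5.12 CPM in ΔfneΔrbp9 (log2 fold change 0.02 ± 0.067 (SE), edgeR adjusted p = 0.861). elav and stau, which encode the nuclear family member and the granule protein, had log2 fold changes of 0.03 and 0.09 (edgeR adjusted p = 0.63 and 0.356), and neither passed the test.

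Of the 10529 genes, 718 (6.82%) passed the test in ΔfneΔrbp9 against Δfne, at an edgeR adjusted p below 0.01 and an absolute log2 fold change above 0.5. Of these, 349 (3.31% of genes tested) were higher and 369 (3.5%) were lower, and the median log2 fold change over all genes tested was −0.01. Most changes were modest, with a median absolute log2 fold change of 0.82 among the called genes. The absolute log2 fold change exceeded 1 for 260 genes (121 higher, 139 lower) and 2 for 81 genes (44 higher, 37 lower). The CPM ranges of the groups did not overlap for 683 of the 718 called genes, beside 22.1% of all genes tested. Among the 3322 genes with a mean normalized count above 1000, 133 were called. By type, 630 called genes were protein coding, 61 were noncoding RNAs and 10 were small nucleolar RNAs. The same rule called 6.86% of genes in Δrbp9 against wild type (3.0% higher, 3.86% lower) and 8.98% for the interaction, which is the difference between the changes on RBP9 loss without and with FNE.

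**Figure D1:**
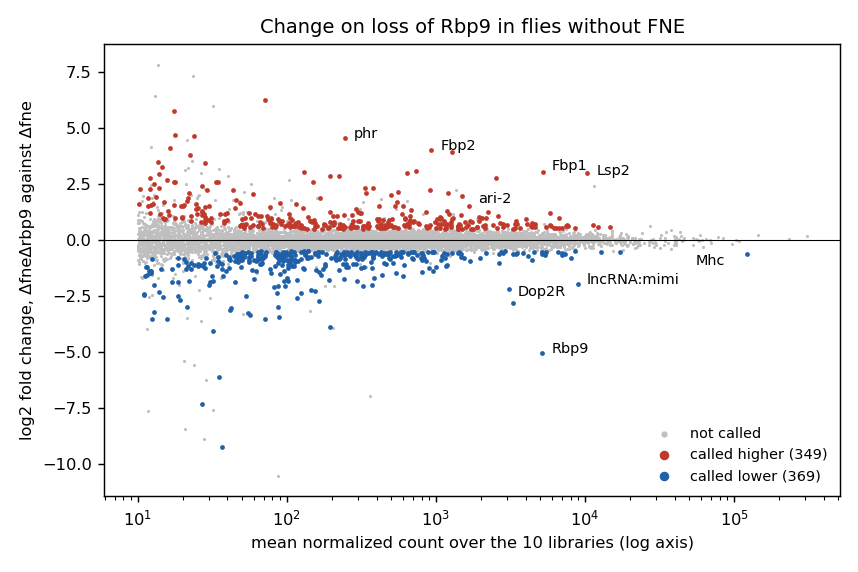
Log2 fold change in ΔfneΔrbp9 against Δfne (vertical axis) by mean normalized count over the 10 libraries (horizontal log axis), 1 point per gene tested, with called genes in red (349 higher) and blue (369 lower). Called genes lie at every level, with mimi, Dop2R and Rbp9 as labelled abundant decreases and Fbp1, Fbp2 and Lsp2 as labelled abundant increases.

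mimi itself was one of the largest decreases among abundant RNAs. In Δfne libraries its levels were 810.3, 839, 872, 882 and 865 CPM. In ΔfneΔrbp9 they were 222, 229, 211, 209.9 and 209.8 CPM. Every ΔfneΔrbp9 library was therefore below every Δfne library by a wide margin, and the spread within either group was small (log2 fold change −1.98 ± 0.039 (SE), edgeR adjusted p = 6.14e-12). In flies that had FNE, mimi had 949.6 ± 48.8 CPM in wild type and 733 ± 16.9 CPM in Δrbp9 (log2 fold change −0.37, under the fold limit). The difference between both changes was −1.61 ± 0.054 on the log2 scale (edgeR interaction adjusted p = 2.7e-14).

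The mimi gene lies at chromosome arm 3R, bases 23983503 to 23985065 (dm6), on the plus strand, between CG31140 and CG13603. CG31140, just upstream on the same strand, had 226 ± 21.5 CPM in Δfne and 215 ± 9.9 CPM in ΔfneΔrbp9 (log2 fold change −0.07, edgeR adjusted p = 0.395). CG13603, just downstream on the other strand, had 55.1 ± 0.923 and 59.6 ± 3.07 CPM (log2 fold change 0.11, edgeR adjusted p = 0.0443). The decrease at mimi thus had no counterpart of its size in either neighbour. The study reports that the CG31140 transcript extends into the mimi locus. The count used here is per gene, so it pools the mimi isoforms, could include such reads, and does not give mimi-RC alone. The 4 biotinylated DNA probes that the study designed against the mimi-RC isoform are shown because they are the sequences that identify this RNA. They are antisense to it, so the RNA carries their reverse complement, with U for T.
mimi-RC probe 1: ttcgtgtagtgagccagggatggaccgagt
mimi-RC probe 2: tttcgtgtttgtgttatgatcaaactccca
mimi-RC probe 3: atgatagtgggtcgaatcgtaaagcaaaat
mimi-RC probe 4: aatacattcaaaaaacataacgcaagggtg
Each probe has 30 bases. A and T make up 43.33% of the first probe, 63.33% of the second and of the third, and 66.67% of the fourth.

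Dop2R, which encodes the inhibitory dopamine receptor, fell by more than mimi. Its levels were 298, 303, 329, 271 and 305 CPM in Δfne and 66.5, 63.3, 70.8, 66.8 and 68.4 CPM in ΔfneΔrbp9, with no overlap (log2 fold change −2.17 ± 0.052 (SE), edgeR adjusted p = 3.84e-11). With FNE present, the loss of RBP9 changed it from 252 ± 18.8 to 208 ± 2.71 CPM (log2 fold change −0.27), and the interaction was −1.89 ± 0.072 (edgeR adjusted p = 1.8e-13). Dop2R (chromosome arm X, bases 20004680 to 20062706) is on the X chromosome, which both groups share in mutant form. The other dopamine genes moved little. The excitatory receptors Dop1R1 and Dop1R2 went from 103 to 89.5 CPM and from 33.9 to 33.8 CPM (edgeR adjusted p = 0.0564 and 0.981). DopEcR, a receptor for dopamine and ecdysteroids, went from 115 to 90.0 CPM, and Vmat, the vesicular monoamine transporter, from 329.7 to 272 CPM. Both of these had a small adjusted p (3.76e-05 and 0.000268, edgeR) but log2 fold changes of −0.35 and −0.28, under the fold limit for a call. ple, the tyrosine hydroxylase that makes the dopamine precursor, and DAT, the dopamine transporter, had log2 fold changes of −0.04 and −0.07. Of these dopamine genes only Dop2R was called.

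ari-2 and Gart rose in ΔfneΔrbp9 above every other library of the series. ari-2, a ubiquitin ligase of the Ariadne family, had 51.2, 49.8, 51.9, 50.5 and 52.6 CPM in Δfne and 148, 151, 151, 147 and 146 CPM in ΔfneΔrbp9 (log2 fold change 1.53 ± 0.03 (SE), edgeR adjusted p = 6.14e-12). Its levels in wild type (54.5 ± 2.24 CPM) and Δrbp9 (53.7 ± 3.21 CPM) were close to those in Δfne, and its interaction was 1.55 ± 0.054 (edgeR adjusted p = 3.88e-14). Gart, a multifunctional enzyme of purine synthesis, was chosen after its values were seen. It had 186, 189, 225, 182 and 257 CPM in Δfne and 452, 465, 567, 472 and 451 CPM in ΔfneΔrbp9 (log2 fold change 1.21 ± 0.099 (SE), edgeR adjusted p = 2.36e-06). In wild type and Δrbp9 its levels were 248 ± 36.1 and 244 ± 9.3 CPM.

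mimi, ari-2 and Gart showed one pattern among the called genes, in which ΔfneΔrbp9 alone stood outside the range of the 15 other libraries. This held for 155 of the 718 called genes (21.6%, 83 higher and 72 lower), beside 4.61% of all genes tested. A larger set showed the converse: for 194 called genes (27.0%, 93 higher and 101 lower), Δfne alone stood outside the range of the others, beside 4.06% of all genes tested. For 18 called genes both groups did, and for 351 neither did. The ΔfneΔrbp9 mean was nearer to the wild type mean than the Δfne mean was for 155 of the 349 genes called higher (44.4%) and for 161 of the 369 called lower (43.6%). The ΔfneΔrbp9 mean was within 0.5 log2 of the wild type mean for 159 of the genes called higher and 153 of those called lower, and the Δfne mean for 180 and 210.

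**Figure D2:**
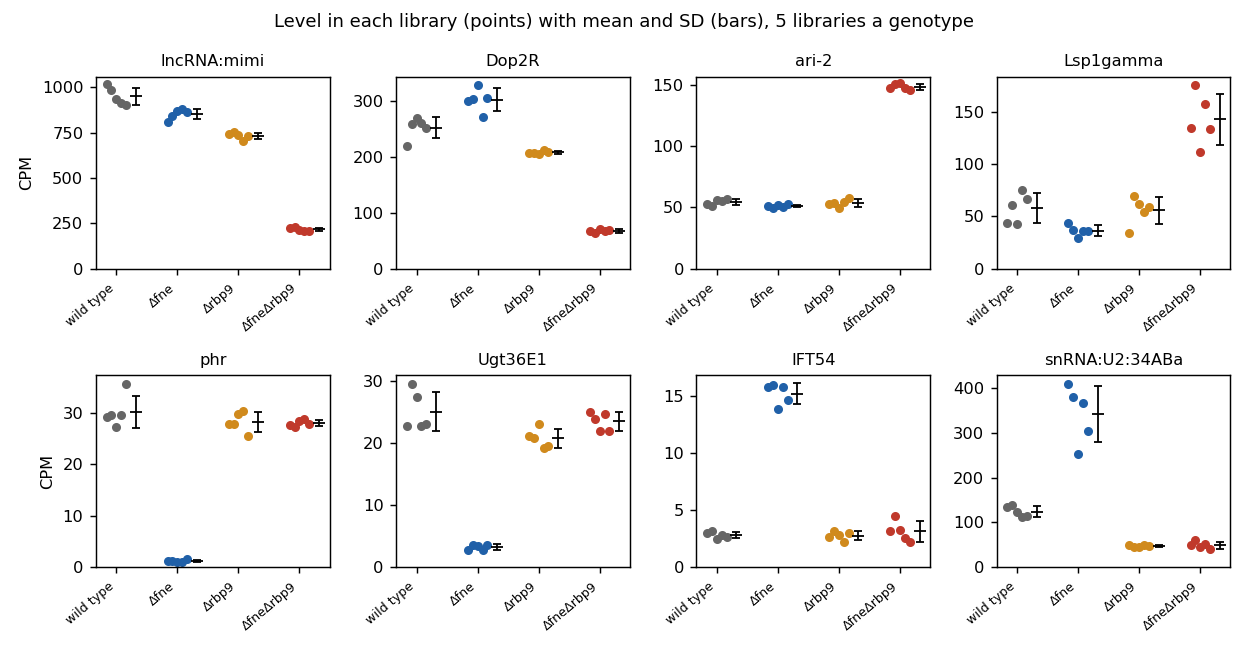
CPM (vertical linear axes from 0) of 8 genes in each of the 20 libraries, with 1 point per library and a bar for the mean and SD of each genotype (n = 5). In the upper row mimi and Dop2R were lowest and ari-2 and Lsp1gamma highest in ΔfneΔrbp9, and in the lower row phr and Ugt36E1 were lowest and IFT54 and snRNA:U2:34ABa highest in Δfne.

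phr, Ugt36E1 and IFT54 were among the genes with the converse pattern. phr (chromosome arm 2R, bases 7825289 to 7827319), the photolyase that repairs UV lesions in DNA, had 1.26, 1.11, 0.991, 1.02 and 1.61 CPM in Δfne and 27.7, 27.3, 28.4, 28.8 and 27.9 CPM in ΔfneΔrbp9 (log2 fold change 4.55 ± 0.10 (SE), edgeR adjusted p = 2.1e-11), with 30.3 ± 3.14 CPM in wild type. Ugt36E1, a UDP-glycosyltransferase, had 2.66, 3.55, 3.37, 2.79 and 3.58 CPM in Δfne and 25, 23.8, 21.8, 24.6 and 21.8 CPM in ΔfneΔrbp9 (log2 fold change 2.87 ± 0.089 (SE), edgeR adjusted p = 6.47e-10), with 25 ± 3.19 CPM in wild type. IFT54, a component of the intraflagellar transport that builds cilia, had 15.8, 16, 13.9, 15.8 and 14.6 CPM in Δfne and 3.18, 4.52, 3.28, 2.54 and 2.16 CPM in ΔfneΔrbp9 (log2 fold change −2.25 ± 0.15 (SE), edgeR adjusted p = 4.2e-07), with 2.81 ± 0.273 CPM in wild type. All 3 genes overlap a neighbour: phr overlaps Prosalpha1, Ugt36E1 overlaps CG17597 and IFT54 overlaps su(Hw), and whether the counting used strand is not given in the sources used here. CG17597 and su(Hw) had log2 fold changes of 0.22 and −0.02, so the called differences of Ugt36E1 and IFT54 did not extend to their partners. Prosalpha1 was near 0 in every library and could not show a change. How reads were divided between phr and Prosalpha1 is therefore open, and the phr count is uncertain.

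Genes of the larval fat body were among the largest increases of abundant RNAs. Larval serum proteins are hexamerins that the larval fat body stores for metamorphosis, and larval fat body cells persist for some time in young adults. Of 21 tested genes of the head fat body and lipid list, 8 were higher and 1 was lower in ΔfneΔrbp9 (42.9%, beside 6.82% of all genes tested), and the median log2 fold change of the list was 0.19. In Δrbp9 against wild type, 2 were higher and none lower. Fbp1, the receptor for larval serum protein uptake, had 88.5, 73.6, 49.2, 61.3 and 66.1 CPM in Δfne and 502, 607, 525, 602 and 536 CPM in ΔfneΔrbp9 (log2 fold change 3.04 ± 0.13 (SE), edgeR adjusted p = 1.34e-08). The Δfne level was below that in wild type (138 ± 32.8 CPM) and the ΔfneΔrbp9 level was above that in Δrbp9 (215 ± 50.6 CPM). Fbp2, an alcohol dehydrogenase-like protein of the fat body, had 9.09, 6.99, 4.51, 6.5 and 5.71 CPM in Δfne and 83.8, 115, 95.9, 112 and 113 CPM in ΔfneΔrbp9 (log2 fold change 4.01 ± 0.15 (SE), edgeR adjusted p = 3.57e-09).

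The 4 Lsp genes rose together. Lsp2 had 118, 108, 174, 89.9 and 193 CPM in Δfne and 1419.6, 861, 1394, 825 and 981 CPM in ΔfneΔrbp9 (log2 fold change 3.004 ± 0.24 (SE), edgeR adjusted p = 1.9e-06). Its levels in wild type ranged from 236 to 806 CPM and in Δrbp9 from 381 to 853 CPM, so that Δfne was the group outside the range of the others. Lsp1beta rose from 38.5 ± 5.07 to 263 ± 42.9 CPM (log2 fold change 2.78 ± 0.12), and its level in Δrbp9 (260.4 ± 40.2 CPM) was close to that in ΔfneΔrbp9. Lsp1gamma rose from 36.2 ± 5.05 to 143 ± 24.6 CPM (log2 fold change 1.98 ± 0.12), and here ΔfneΔrbp9 alone was outside the range of the others. Lsp1alpha rose from 11.8 ± 2.16 to 47.7 ± 15.3 CPM (log2 fold change 2.03 ± 0.23). The edgeR adjusted p of these 3 were 1.34e-08, 2.93e-07 and 3.25e-05.

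The adult markers of the same tissue did not follow. apolpp, the main haemolymph lipoprotein, had 3548 ± 1549 CPM in Δfne and 3409.8 ± 749 CPM in ΔfneΔrbp9 (log2 fold change −0.06, edgeR adjusted p = 0.891). to (takeout), a secreted carrier protein of the head fat body, had 18.8 ± 2 and 15.3 ± 0.739 CPM (log2 fold change −0.31, edgeR adjusted p = 0.00728). Among the other members, Got1, an aspartate aminotransferase, rose from 268 ± 13.8 to 426 ± 11.6 CPM (log2 fold change 0.67 ± 0.04 (SE), edgeR adjusted p = 1.92e-07). The single lower member was FASN2, a fatty acid synthase whose gene is the last of the block of lower genes around Rbp9 described further on (log2 fold change −1.99). The list's counts were 8 higher and 1 lower in each fit that left out 1 library, and also without both libraries numbered 5.

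**Figure D3:**
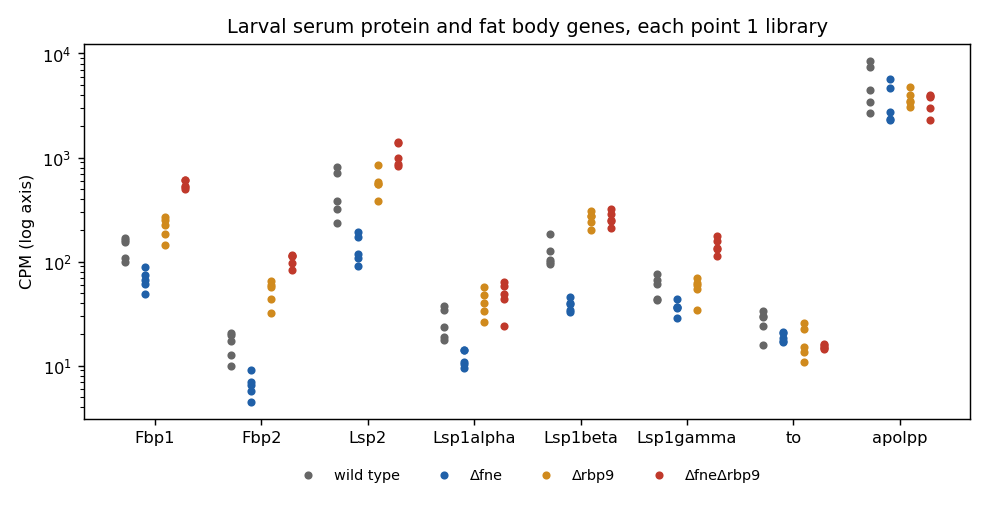
CPM (log vertical axis) of 8 fat body genes in each of the 20 libraries, 1 point per library, coloured by genotype. Fbp1, Fbp2 and the 4 Lsp genes were higher in every ΔfneΔrbp9 library than in any Δfne library, while the ranges of the adult marker apolpp overlapped.

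tobi, Jhbp5, CG7900 and CG12224 were further increases named by their size. tobi, a glucosidase regulated by insulin and glucagon-like signals, had 5.69, 6.41, 9.47, 6.22 and 19.2 CPM in Δfne and 199, 108, 191, 80.9 and 137 CPM in ΔfneΔrbp9 (log2 fold change 3.92 ± 0.35 (SE), edgeR adjusted p = 4.88e-06), and wild type had 69.9 ± 30.9 CPM. Jhbp5, of the juvenile hormone-binding protein family, rose from 8.67 ± 1.64 to 67.5 ± 2.16 CPM (log2 fold change 2.98 ± 0.096, edgeR adjusted p = 9.44e-10). CG7900 rose from 1.67 ± 0.274 to 13.9 ± 1.88 CPM (log2 fold change 3.05 ± 0.13), still under its wild type level of 21.4 ± 5.35 CPM. CG12224, in contrast, was raised in ΔfneΔrbp9 alone, to 20.6 ± 3.73 CPM from 2.78 ± 0.421 CPM (log2 fold change 2.88 ± 0.14 (SE), edgeR adjusted p = 3.47e-08), and had 4.38 ± 0.359 CPM in wild type and 3.13 ± 2.04 CPM in Δrbp9. No role is given here for CG7900 or CG12224.

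Cytochrome P450 genes, whose products oxidise hormones, lipids and foreign compounds, were among the most often called. Of 76 tested, 15 were higher and 9 lower (31.6%, beside 6.82% of all genes tested), with a list median of 0.08, so that the changes went both ways. For 16 of these 24 calls Δfne alone stood outside the range of the other libraries, and for 2 ΔfneΔrbp9 did. Cyp6a23 had 13.7, 13, 16.4, 16.3 and 17.1 CPM in Δfne and 48.7, 51.6, 52, 49.3 and 47.2 CPM in ΔfneΔrbp9 (log2 fold change 1.69 ± 0.072 (SE), edgeR adjusted p = 1.18e-08), between the Δfne and the wild type levels (87.8 ± 16 CPM). Its closely related neighbour Cyp6a17 went the other way, from 54.4, 56.8, 63.9, 62.7 and 60.9 CPM to 33.2, 35.2, 37, 32.5 and 34.6 CPM (log2 fold change −0.79 ± 0.052 (SE), edgeR adjusted p = 4.19e-07). Cyp6a17 was at 0.349 ± 0.171 CPM in wild type and 30.6 ± 3.19 CPM in Δrbp9, which gave it a log2 fold change of 6.45 in the other RBP9 contrast. Reads shared by this pair could be split between them by the counting, so the values of each are uncertain.

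Cyp12d1-d had reads in only 1 of the 2 groups. It had 65 to 104 counts in the Δfne libraries (4.39 ± 0.716 CPM) and 0 counts in every ΔfneΔrbp9 library, which is at least 21.5-fold lower when set against a floor of 3 counts per library. Wild type also had 0 CPM, and this gene too has a near-identical copy. Among the other P450 calls, Cyp12c1 rose from 10.5 ± 1.21 to 25.3 ± 1.94 CPM (log2 fold change 1.26 ± 0.083) and Cyp28d1 from 152 ± 8.99 to 252 ± 12.2 CPM (0.73 ± 0.047), and Cyp6a13 fell from 28.8 ± 2.31 to 14.7 ± 0.782 CPM (−0.97 ± 0.064). By edgeR their adjusted p were 4.19e-07, 4.13e-07 and 4.2e-07.

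The conjugating enzymes of the same detoxification route gave fewer calls than the P450 genes. UDP-glycosyltransferases add sugars to small molecules. Of 19 tested, 3 were higher and 1 lower (21.1%, beside 6.82% of all genes tested), with a median of 0.12. Besides Ugt36E1 above, Ugt302K1 rose from 0.598 ± 0.324 to 3.51 ± 0.613 CPM (log2 fold change 2.59 ± 0.30, edgeR adjusted p = 4.21e-05). Ugt301D1 fell from 210.1 ± 18 to 104 ± 2.09 CPM (log2 fold change −1.01 ± 0.055 (SE), edgeR adjusted p = 9.03e-08), and it was also lower in Δrbp9 against wild type (log2 fold change −0.87). Of 30 tested glutathione transferases, 2 were higher and 1 lower (10%). GstE4 rose from 71.9 ± 6.51 to 129.6 ± 4.15 CPM (log2 fold change 0.85 ± 0.055) and GstE7 fell from 6.08 ± 0.634 to 3.85 ± 0.345 CPM (−0.66 ± 0.10), with edgeR adjusted p of 4.13e-07 and 0.00039.

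Odorant-binding proteins, small secreted carriers of the sensilla and of other tissues, split by member. Of 32 tested, 4 were higher and 5 lower (28.1%, beside 6.82% of all genes tested), and the list median was −0.07. Obp99a had 9.16, 6.52, 14.2, 4.02 and 12.6 CPM in Δfne and 129.7, 60.6, 100.4, 28.1 and 69.9 CPM in ΔfneΔrbp9 (log2 fold change 3.09 ± 0.40 (SE), edgeR adjusted p = 0.000107), and Obp99b rose from 27.2 ± 3.87 to 116 ± 14.1 CPM (log2 fold change 2.09 ± 0.10, edgeR adjusted p = 4.62e-08). Obp56a fell from 10.8 ± 1.38 to 3.11 ± 0.668 CPM (log2 fold change −1.79 ± 0.14) and fell as far in Δrbp9 against wild type (−1.81). Obp56h fell from 5.55 ± 2.11 to 1.66 ± 0.281 CPM (−1.73 ± 0.24), Obp49a from 52 ± 5.27 to 30.2 ± 1.57 CPM (−0.79 ± 0.067) and Obp59a from 32.4 ± 1.39 to 19.7 ± 1.67 CPM (−0.72 ± 0.06). For these 4 lower members the edgeR adjusted p were 1.59e-06, 0.000185, 3.17e-06 and 2.54e-06. Obp59a had 18.2 ± 0.85 CPM in wild type and 18.9 ± 0.485 CPM in Δrbp9. Of the 9 calls in this list, Δfne alone was outside the range of the other libraries for 4, Obp59a among them, and ΔfneΔrbp9 alone for 0.

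Calls among genes of structural cuticle proteins were mostly lower. Of 48 tested, 11 were called lower and 2 higher (27.1%, beside 6.82% of all genes tested), 28 were below 0 and 20 above, and the median was −0.12, and in Δrbp9 against wild type 10 were lower and 8 higher. Cpr56F had 13.4, 12.2, 10.6, 9.17 and 14.5 CPM in Δfne and 2.32, 1.78, 2.19, 2.25 and 1.31 CPM in ΔfneΔrbp9 (log2 fold change −2.60 ± 0.17 (SE), edgeR adjusted p = 3.58e-07), and 5.22 ± 3.42 and 1.21 ± 0.376 CPM in wild type and Δrbp9. TwdlG, of the Tweedle family, fell from 6.88 ± 0.749 to 3.05 ± 0.273 CPM (log2 fold change −1.18 ± 0.10), and Lcp65Ac from 13.3 ± 2.16 to 5.27 ± 0.409 CPM (−1.34 ± 0.11). Cpr49Ae, the most abundant of those named, fell from 237 ± 20.2 to 153 ± 9.16 CPM (−0.63 ± 0.061), Cpr73D from 33.4 ± 2.81 to 21.5 ± 1.26 CPM (−0.63 ± 0.065) and Cpr62Bc from 192 ± 15.9 to 134 ± 8.02 CPM (−0.52 ± 0.06). The edgeR adjusted p of these 5 genes ranged from 3.27e-06 for Lcp65Ac to 4.08e-05 for Cpr62Bc. Over the fits that left out 1 library, 9 to 12 members were lower and 1 to 3 higher, and Cpr62Bc lost its call without Δfne library 2 or ΔfneΔrbp9 library 2 (log2 fold changes of −0.48 and −0.49).

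Immune and stress genes did not move as a block. Bomanins, short secreted peptides induced through the Toll pathway, were mostly higher. Of 12 tested, 5 were called (41.7%, beside 6.82% of all genes tested), all upward, with a median of 0.42. In Δrbp9 against wild type 5 of 12 were also higher. BomS3 had 442, 486, 493, 594 and 568 CPM in Δfne and 770.5, 881, 823, 805 and 880.2 CPM in ΔfneΔrbp9 (log2 fold change 0.69 ± 0.075 (SE), edgeR adjusted p = 2.66e-05). BomS5 rose from 41.7 ± 11.4 to 79.4 ± 11.8 CPM (log2 fold change 0.92 ± 0.17), BomT2 from 42.8 ± 7.49 to 83.8 ± 11.9 CPM (0.96 ± 0.12), BomS6 from 219.6 ± 21.2 to 332 ± 25.6 CPM (0.59 ± 0.069) and BomS2 from 415 ± 68.2 to 611 ± 58.2 CPM (0.56 ± 0.10). Their edgeR adjusted p were 0.0012, 8.39e-05, 4.35e-05 and 0.0014, and BomS2 fell just under the fold limit without Δfne library 1 (log2 fold change 0.49). The antimicrobial peptides, effectors of the same response, gave no call among 15 tested. On the log2 scale 12 of these peptides were above 0, with a list median of 1.34. By edgeR 5 had an unadjusted p below 0.05, beside 4316 of all 10529 genes tested, and DESeq2 also called 0 peptides.

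Turandot genes, stress-induced humoral factors, fell. Of 4 tested, 3 were lower (75%, beside 6.82% of all genes tested), with a median of −1.85. In Δrbp9 against wild type none was called. TotX fell from 7.91 ± 1.92 to 1.88 ± 0.717 CPM (log2 fold change −2.11 ± 0.24 (SE), edgeR adjusted p = 3.68e-05). TotA had 47.9, 97.7, 43.6, 25.7 and 57.2 CPM in Δfne and 19.3, 27.3, 12.6, 13.2 and 15.8 CPM in ΔfneΔrbp9, and these ranges overlapped (log2 fold change −1.60 ± 0.32 (SE), edgeR adjusted p = 0.00235). TotC had 8.13, 65.6, 10.4, 6.1 and 18.3 CPM in Δfne, where library 2 stood far above the others, and 1.85, 2.69, 1.09, 0.196 and 0.983 CPM in ΔfneΔrbp9 (log2 fold change −3.87 ± 0.75 (SE), edgeR adjusted p = 0.00184). Without Δfne library 2 the log2 fold change of TotC was −2.89. Without both libraries numbered 5, 1 Turandot gene was called lower in place of 3, and the edgeR adjusted p of TotC and TotA were 0.0107 and 0.0114.

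Tep4, a complement-like thioester protein, had 285, 306, 335, 299 and 323 CPM in Δfne and 188, 187, 196, 177 and 195 CPM in ΔfneΔrbp9 (log2 fold change −0.72 ± 0.047 (SE), edgeR adjusted p = 4.19e-07). In wild type it had 34.2 ± 3.55 CPM, below every mutant library, and 179 ± 7.88 CPM in Δrbp9. Tep2, of the same family, rose from 166 ± 11.8 to 239 ± 12 CPM (log2 fold change 0.52 ± 0.051). Of 20 heat shock genes 2 were higher and none lower (10%, beside 6.82% of all genes tested). Hsp23, a small heat shock protein, rose from 23 ± 5.72 to 58 ± 14.3 CPM (log2 fold change 1.35 ± 0.18), and Hsp70Ba, one of several near-identical copies, had 4.88, 3.61, 0.595, 1.54 and 2.6 CPM in Δfne and 14.1, 41.4, 6.25, 7.43 and 6.49 CPM in ΔfneΔrbp9 (log2 fold change 2.60 ± 0.62). Among the Δfne and ΔfneΔrbp9 libraries, ΔfneΔrbp9 library 2 was the highest for both heat shock genes. Over all 20 libraries the highest for Hsp70Ba was Δrbp9 library 2 (43.2 CPM). The edgeR adjusted p of Tep2, Hsp23 and Hsp70Ba were 1.01e-05, 0.000137 and 0.00707. Hsp70Ba lost its call in 6 of the fits that left out 1 library, with adjusted p up to 0.02 by edgeR, and without ΔfneΔrbp9 library 2 its log2 fold change was 1.75 and that of Tep2 was just under 0.5.

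Of 36 synaptic vesicle and active zone genes, 2 were lower and none higher (5.56%, beside 6.82% of all genes tested), with a median of −0.04. Both calls belong to the membrane fusion machinery. Snap25, a SNARE protein of the plasma membrane, had 470.2, 528, 501, 535 and 483 CPM in Δfne and 332, 364, 321, 348 and 310.1 CPM in ΔfneΔrbp9 (log2 fold change −0.59 ± 0.051 (SE), edgeR adjusted p = 3.79e-06). comt, the NSF ATPase that takes SNARE complexes apart, had 395, 377, 380.4, 390.1 and 378 CPM in Δfne and 278, 269.8, 268, 261 and 265 CPM in ΔfneΔrbp9 (log2 fold change −0.52 ± 0.031 (SE), edgeR adjusted p = 2.11e-07). For both genes ΔfneΔrbp9 alone was below the range of all other libraries. nSyb, the vesicle SNARE, had 708 ± 21.7 CPM in Δfne and 658 ± 8.53 CPM in ΔfneΔrbp9 (log2 fold change −0.11, edgeR adjusted p = 0.0274). It was not called, although its ΔfneΔrbp9 libraries too were below the range of all others. brp, a scaffold of the active zone, had a log2 fold change of 0.02 and was not called. The interaction of Snap25 was −0.35 and that of comt −0.44 (edgeR adjusted p = 0.000625 and 2.49e-06), and neither reached an absolute log2 value of 0.5.

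Of 36 ion channel genes 1 was lower (2.78%, beside 6.82% of all genes tested). tipE, an auxiliary subunit of the voltage-gated sodium channel, fell from 48.2 ± 3.53 to 32.8 ± 1.19 CPM (log2 fold change −0.55 ± 0.053 (SE), edgeR adjusted p = 8.82e-06). No gene was called among 10 nicotinic receptor subunits, 22 learning and second messenger genes, 30 phototransduction genes, 17 clock genes, 15 glial genes or 13 described RNA targets of the ELAV family. Beside these counts of 0 from edgeR, the numbers with an unadjusted p below 0.05 were 7, 9, 24, 4, 11 and 3. Over all 10529 genes tested this number was 4316. Those with an edgeR adjusted p below 0.01, without the fold limit, were 1, 6, 13, 1, 4 and 2, beside 2010 of all genes tested. DESeq2 also called 0 in each of these lists. The range of log2 fold changes was −0.45 to 0.37 over the phototransduction genes, −0.31 to 0.20 over the clock genes and −0.11 to 0.40 over the ELAV targets. These ranges lay within the fold limit of 0.5, so no member of these lists could be called.

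Neuropeptides and their receptors changed in both directions. Of 40 tested neuropeptide genes, 4 were higher and 2 lower (15%), and of 39 receptor genes 3 were higher and 1 lower (10.3%), beside 6.82% of all genes tested. CCHa2, a peptide made in fat body and gut that reports nutrition to the brain, had 118, 106, 118, 113 and 109.6 CPM in Δfne and 164, 221, 154, 166 and 182 CPM in ΔfneΔrbp9 (log2 fold change 0.65 ± 0.084 (SE), edgeR adjusted p = 9.53e-05). Ilp6, the insulin-like peptide of the fat body, rose from 22.8 ± 1.63 to 35.1 ± 1.39 CPM (log2 fold change 0.62 ± 0.053, edgeR adjusted p = 3.52e-06). FMRFa, the precursor of FMRFamide peptides, rose from 5.11 ± 0.7 to 7.83 ± 0.784 CPM (log2 fold change 0.62 ± 0.11, edgeR adjusted p = 0.000894). Pburs, a bursicon subunit, rose from 0.708 ± 0.0877 to 1.41 ± 0.287 CPM, and Gpb5, a glycoprotein hormone subunit, and Nplp4, a neuropeptide-like precursor, fell from 4.08 ± 0.622 to 1.77 ± 0.187 CPM and from 2.68 ± 0.487 to 1.43 ± 0.401 CPM. These last 3 were low, with log2 fold changes of 0.97 ± 0.20, −1.204 ± 0.14 and −0.91 ± 0.21 (edgeR adjusted p = 0.00258, 3.85e-05 and 0.00644), and Nplp4 lost its call in 7 of the 10 fits that left out 1 library, with edgeR adjusted p of 0.0108 to 0.0196.

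Among receptors, Lgr4, of the relaxin receptor family, had 4.07, 4.72, 4.56, 5.12 and 4.05 CPM in Δfne and 9.26, 6.51, 8.43, 7.53 and 7.08 CPM in ΔfneΔrbp9 (log2 fold change 0.78 ± 0.11 (SE), edgeR adjusted p = 0.00022). FMRFaR, the FMRFamide receptor, rose from 10.3 ± 0.777 to 16.8 ± 2.73 CPM (log2 fold change 0.70 ± 0.1), and SIFaR, the SIFamide receptor, from 15.4 ± 2.05 to 24 ± 1.26 CPM (0.64 ± 0.084). CCAP-R, the receptor for crustacean cardioactive peptide, fell from 8.72 ± 0.649 to 6.07 ± 0.887 CPM (−0.52 ± 0.10). The edgeR adjusted p of these 3 were 0.000222, 0.000115 and 0.002, and the log2 fold change of CCAP-R was between −0.50 and −0.45 without Δfne library 1 or ΔfneΔrbp9 library 1 or 5, under the fold limit. For both FMRFa and its receptor, ΔfneΔrbp9 alone was above the range of all other libraries. For FMRFaR the margin was narrow, with 14.35 CPM in the lowest ΔfneΔrbp9 library and 14.32 CPM in the highest Δrbp9 library. The interaction of FMRFaR was 0.40 (edgeR adjusted p = 0.0254) and was not called.

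Lists were also pooled, in a grouping made after the values were seen, to describe which group stood apart, and the difference between the pools was not tested. Among all 718 calls ΔfneΔrbp9 alone was outside the range of the others for 21.6% and Δfne alone for 27.0%. Of the 13 calls among 150 neuropeptide, receptor, synaptic and ion channel genes (8.67%, beside 6.82% of all genes tested), ΔfneΔrbp9 alone was outside the range of the others for 9 and Δfne alone for 1. Of the 40 calls among 157 cytochrome P450, UDP-glycosyltransferase, glutathione transferase and odorant-binding genes (25.5%), Δfne alone was outside for 23 and ΔfneΔrbp9 alone for 2. The interaction was called for 4 of the 13 and for 27 of the 40. The median absolute log2 fold change of the calls was 0.64 in the first pool and 0.99 in the second.

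**Figure D4:**
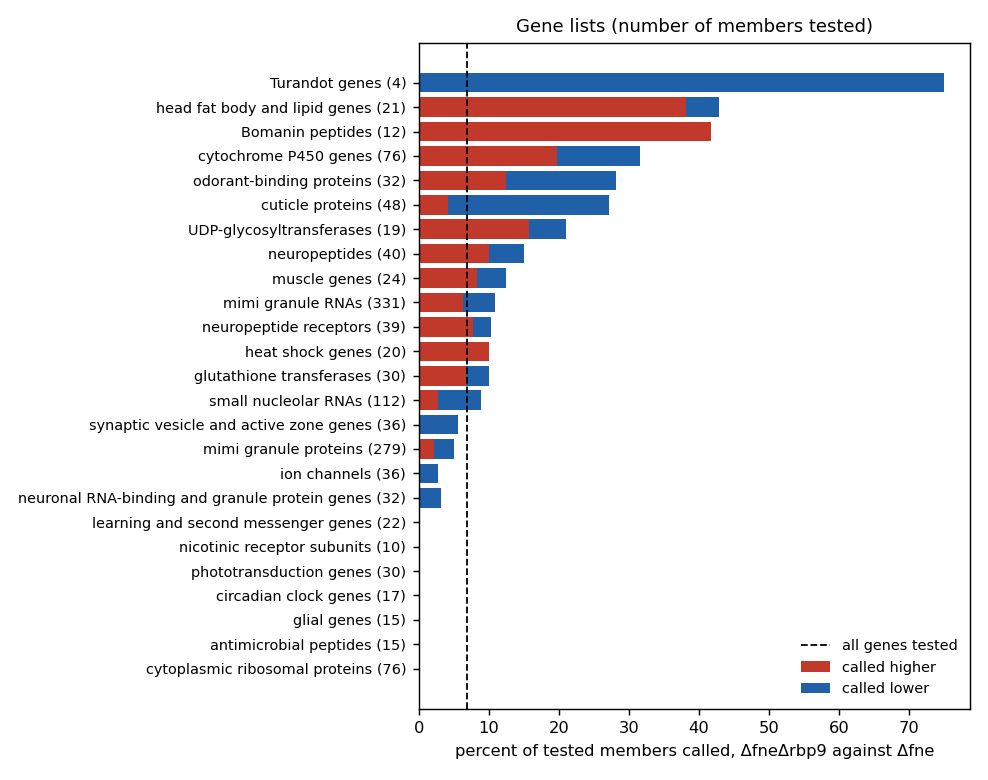
Percent of tested genes called in ΔfneΔrbp9 against Δfne, 1 stacked bar per gene list with the calls higher in red and lower in blue, and the number tested after each name. The dashed line marks the 6.82% of all genes tested. The fat body, cytochrome P450, odorant-binding and cuticle bars end between 27.1% and 42.9%, and the synaptic, ion channel and learning bars lie below the line.

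Of 24 muscle genes 2 were higher and 1 lower (12.5%, beside 6.82% of all genes tested). The lower gene was Mhc, which also made up most of the lower muscle marker sum given above, so both are the same observation. Mhc, the muscle myosin heavy chain, had 9032, 9355, 8655, 8095 and 8957 CPM in Δfne and 5925, 5172, 6057, 5753 and 5808 CPM in ΔfneΔrbp9 (log2 fold change −0.62 ± 0.051 (SE), edgeR adjusted p = 2.45e-06). In Δrbp9 against wild type it fell by a similar amount (log2 fold change −0.51). TpnC47D, a troponin C, had 25.9, 16.9, 13.3, 14.3 and 26.9 CPM in Δfne and 96.1, 74.3, 86.7, 94.5 and 97.4 CPM in ΔfneΔrbp9 (log2 fold change 2.22 ± 0.18 (SE), edgeR adjusted p = 2.45e-06), and it also rose in Δrbp9 against wild type (log2 fold change 1.73). Act87E, an actin, rose from 703 ± 126 to 1061 ± 121 CPM with ranges that overlapped (log2 fold change 0.59 ± 0.12, edgeR adjusted p = 0.0022).

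RNAs that the study assigned to mimi granules, from samples other than these, changed in both directions. Of 331 tested, 21 were higher and 15 lower (10.9%, beside 6.82% of all genes tested), and the median was below 0.01 in size. mimi and Dop2R were the granule RNAs with the smallest p among those lower. fbp, the gluconeogenic fructose bisphosphatase, had 74, 76.2, 91.4, 81 and 87.9 CPM in Δfne and 160.4, 146, 146, 148 and 147 CPM in ΔfneΔrbp9 (log2 fold change 0.86 ± 0.057 (SE), edgeR adjusted p = 4.29e-07). ZnT41F, a zinc transporter, rose from 19.8 ± 0.481 to 30.9 ± 1.28 CPM (log2 fold change 0.64 ± 0.043), and CG34195 fell from 5.41 ± 0.672 to 0.96 ± 0.256 CPM (−2.50 ± 0.18), with edgeR adjusted p of 5.07e-07 and 7.36e-07. ΔfneΔrbp9 alone was outside the range of the others for 8 of the 36 calls and Δfne alone for 10. In Δrbp9 against wild type 10 granule RNAs were higher and 34 lower.

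Genes of the granule proteins gave 6 higher and 8 lower calls among 279 tested (5.02%, beside 6.82% of all genes tested). The 5 learning genes among them, Shab, Hk, dnc, rut and klg, had log2 fold changes of −0.14 to −0.02. They gave no edgeR call and 0 calls by DESeq2. By edgeR 2 of them had an unadjusted p below 0.05, beside 4316 of all 10529 genes tested. Of 32 neuronal RNA-binding and granule protein genes, only Rbp9 was called. lectin-28C, a C-type lectin in the protein list, rose from 12.1 ± 2.85 to 54.6 ± 4.35 CPM (log2 fold change 2.16 ± 0.13 (SE), edgeR adjusted p = 1.92e-07).

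Noncoding RNAs other than mimi were also among the decreases named by their size. snRNA:U2:34ABa, a copy of the U2 spliceosomal RNA, had 409.5, 379, 253, 366 and 303 CPM in Δfne and 48.2, 60.4, 44.4, 50.4 and 40.2 CPM in ΔfneΔrbp9 (log2 fold change −2.81 ± 0.14 (SE), edgeR adjusted p = 4.62e-08). It had 124 ± 11.8 CPM in wild type and 47 ± 1.73 CPM in Δrbp9, and as one of several near-identical U2 genes its counts are uncertain. snoRNA:Psi28S-1837a, which by its name guides a pseudouridine of 28S ribosomal RNA, fell from 9.48 ± 1.42 to 2.71 ± 0.389 CPM (log2 fold change −1.81 ± 0.13), and from 15 ± 3.07 to 3.77 ± 0.721 CPM in Δrbp9 against wild type. Of 112 small nucleolar RNAs 3 were higher and 7 lower (8.93%, beside 6.82% of all genes tested). lncRNA:CR45115 fell from 16.9 ± 2.65 to 2.6 ± 0.734 CPM (log2 fold change −2.74 ± 0.18), below its wild type level of 5.2 ± 0.551 CPM.

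Further protein-coding decreases named by their size were AANATL2, CG14118, CG13065 and CG31205. AANATL2, an arylalkylamine N-acetyltransferase-like enzyme, fell from 27.5 ± 2.35 to 7.88 ± 0.762 CPM (log2 fold change −1.81 ± 0.081 (SE), edgeR adjusted p = 1.75e-08). CG14118 fell from 12.6 ± 3.8 to 2.38 ± 0.789 CPM (log2 fold change −2.38 ± 0.26), and in flies that had FNE the loss of RBP9 lowered it from 27.7 ± 13.5 to 2.47 ± 1.09 CPM. CG13065 and CG31205, both abundant, fell from 96.6 ± 12.4 to 43.4 ± 7.5 CPM and from 97.4 ± 8.41 to 44.9 ± 3.06 CPM. Their log2 fold changes were −1.16 ± 0.12 and −1.12 ± 0.065, and both also fell in Δrbp9 against wild type (−1.68 and −1.22).

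A block of genes around Rbp9 was lower in ΔfneΔrbp9. Df(2L)ED206 removes genes of this neighbourhood from one of the chromosomes, and the extent of the block was set from these values, so its counts are a description. From Ifrd1 to FASN2 (dm6, chromosome arm 2L, bases 2868627 to 3056143), 30 genes other than Rbp9 were tested and 27 were called lower. Their median log2 fold change was −0.99, which is 50.3% of the Δfne level, with quartiles of −1.17 and −0.67. In Δrbp9 against wild type the median of the same genes was −0.78. The interval accounted for 27 of the 369 genes called lower, and 341 lower calls other than Rbp9 lay outside it.

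Calls outside the block were unevenly spread over the chromosomes. On arm 2L outside the interval 8.86% of tested genes were called (90 higher, 69 lower), on 2R 8.10%, on 3L 6.35% and on 3R 6.79%. On the X chromosome, which carries the same fne alleles in both groups, 2.76% were called, and on chromosome 4 1.05% (1 of 95). The second chromosome differs in origin between the groups, and sequence or expression variants carried on it cannot be told apart from the loss of RBP9. No origin is given for the third chromosome of either group, so the same limit holds for calls there. Of the 360 calls on the second chromosome, Δfne alone was outside the range of all other libraries for 127 and ΔfneΔrbp9 alone for 54. On the third chromosome the order was the reverse, with 59 and 87 of 302 calls.

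The loss of RBP9 in flies that had FNE, Δrbp9 against wild type, shared no library with the comparison above. In it 721 of 10515 genes were called (6.86%), 315 higher (3.0%) and 406 lower (3.86%). Of 10343 genes tested in both, 686 were called without FNE and 685 with FNE, and 200 were called in both. The direction was the same for 154 of these (62 higher, 92 lower), which is 22.4% of the calls without FNE and 22.5% of those with FNE. It was opposite for 46. Without the interval around Rbp9, 129 genes were called in the same direction, 19.6% of each list. Of the 686 calls without FNE, 461 (67.2%) had the same sign in the other contrast, whether called there or not. Over the 10343 genes, which are not independent replicates, the log2 fold changes of both contrasts had a Pearson r of 0.15 and a Spearman rho of 0.18.

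**Figure D5:**
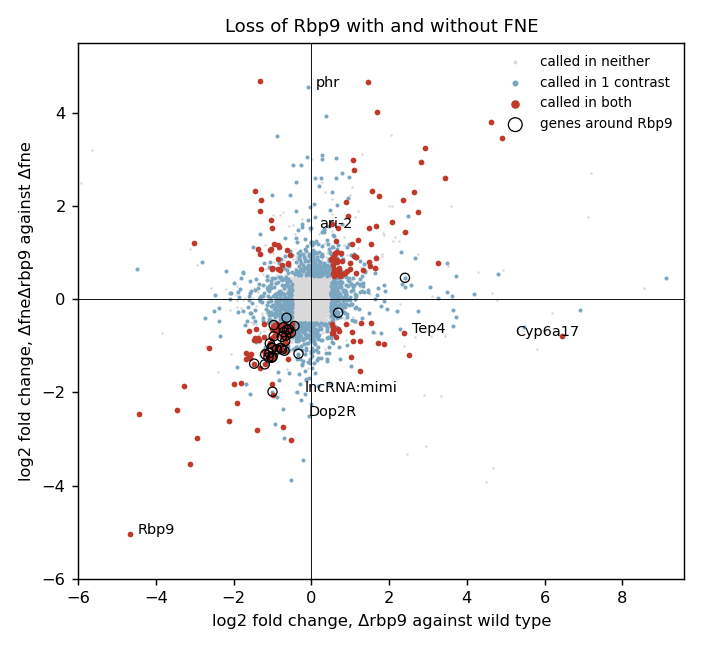
Log2 fold change on loss of RBP9 with FNE present (Δrbp9 against wild type, horizontal) and with FNE absent (ΔfneΔrbp9 against Δfne, vertical), 1 point per gene tested in both, with 6 points outside the axes. Red points were called in both contrasts (154 in the same direction, 46 in opposite directions), circles mark genes around Rbp9, and phr and ari-2 lie near 0 on the horizontal axis only.

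The genes with the largest change shared by both contrasts included Fbp2, TpnC47D, Cpr56F, CG14118 and snoRNA:Psi28S-1837a, given above. CG16898 rose from 7.46 ± 1.61 to 32.8 ± 6.07 CPM without FNE (log2 fold change 2.12 ± 0.16) and from 3.62 ± 0.412 to 18.4 ± 2.16 CPM with FNE (2.35). FBgn0028519, an ID without annotation in the table used, rose from 7.62 ± 2.01 to 37.7 ± 4.73 CPM (log2 fold change 2.30 ± 0.17) and from 2.1 ± 1.38 to 13.3 ± 2.96 CPM (2.65). Gnmt, the glycine methyltransferase that buffers S-adenosylmethionine, fell from 14.4 ± 12.4 to 3.05 ± 1.09 CPM with overlapping ranges (log2 fold change −2.23 ± 0.56) and from 16.6 ± 8.07 to 4.43 ± 2.74 CPM (−1.91). The edgeR adjusted p of these 3 without FNE were 1.28e-06, 1.03e-06 and 0.0097, and Gnmt lost its call in 7 of the 10 fits that left out 1 library, with edgeR adjusted p of 0.0138 to 0.0269.

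Whether the change on RBP9 loss differed between flies without and with FNE was tested with the interaction over all 20 libraries. Each genotype also carries its own chromosomes, so a level particular to Δfne or to wild type enters the interaction. Such a level cannot be told apart from a dependence on FNE. The interaction was called for 946 of 10538 genes (8.98%), 488 in the positive direction (4.63%) and 458 in the negative (4.35%). Of the 718 genes called in ΔfneΔrbp9 against Δfne, 325 (45.3%) were also called for the interaction, 318 of them in the direction of the call (175 higher, 143 lower). For the other 393 a difference between the contrasts was not called, which does not show that the changes were equal. ΔfneΔrbp9 alone was outside the range of all other libraries for 58 of the 325 genes, among them mimi and ari-2, and Δfne alone for 148, among them phr, Ugt36E1, IFT54 and Tep4. All libraries of a genotype carry its chromosomes in common, and no label says whether they came from separate crosses or collections, so the p-values measure the spread between these libraries.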

How the data were processed

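Libraries of total RNA depleted of ribosomal RNA (TruSeq Stranded) were made from heads, 5 per genotype, and sequenced paired-end. The deposited values are unnormalized counts of reads, 1 per gene and library, made by the authors with snakePipes on the dm6 genome and the Ensembl release 96 annotation; the processing notes name STAR and Subread featureCounts, and tool versions and the strand setting are not given in the sources used here. A further table holds only the authors' own DESeq2 comparison (fold changes and p-values) and was not used. Of 17558 gene IDs, 17252 matched the annotation used here (dm6 coordinates), and the other 306 held 3.758% of reads.

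Genes with a mean normalized count above 10 (median-of-ratios size factors) were tested in R 4.3.3 with the quasi-likelihood F-test of edgeR 4.0.16 and TMM factors, two-sided, with Benjamini-Hochberg adjustment over all genes tested. The ΔfneΔrbp9 and Δfne libraries were fitted alone, as were Δrbp9 and wild type, and the interaction used all 20 libraries. Calls needed an adjusted p below 0.01 and an absolute log2 fold change above 0.5. The design has no covariate. DESeq2 1.42.0, other scalings, filters, cutoffs, a sex-mix covariate, a replicate block and leaving out libraries were alternatives. The fits were tested on simulated data.

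Named genes were fne, Rbp9, elav, mimi and stau, the 10 largest calls in each direction with a mean normalized count above 100 and ranges that did not overlap, the 5 largest above 1000, up to 6 called members of each list by smallest p, the 4 largest in each direction shared with Δrbp9 against wild type (by the smaller absolute log2 fold change, mean above 100) and the 3 interaction calls of smallest p on each side. Genes of the interval around Rbp9 were counted apart. Genes named outside this rule (the dopamine genes, Gart, Lsp1alpha, FASN2, markers and neighbours) were chosen after their values were seen. The members, lists and tests were chosen with earlier results of these data known.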

Additional observations from a re-analysis of the deposited data

Results flagged for a closer look

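Single libraries stood far from the rest of their group in 11 of 202 groups of 5 values (5.45%), where chance alone gives about 1 in 20. In Δfne, library 1 had 550.4 CPM of Rbp9 (598.5 to 616.8 in the others) and 34.9 CPM of Obp59a (31.4 to 32.2). Δfne library 2 had 65.6 CPM of TotC (6.10 to 18.3). Δfne library 5 had 19.2 CPM of tobi (5.69 to 9.47) and 4.10 CPM of FBgn0028519 (7.98 to 8.97). In ΔfneΔrbp9, library 2 had 82.6 CPM of Hsp23 (47.4 to 55.8), 41.4 CPM of Hsp70Ba (6.25 to 14.1) and 845 CPM of Act87E (1101 to 1127). ΔfneΔrbp9 library 3 had 27.1 CPM of CG12224 (17.8 to 19.98) and 567 CPM of Gart (450.6 to 472), and library 1 had 160.4 CPM of fbp (146 to 148).

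The change on loss of RBP9 differed with and without FNE for 46 of the named genes, by the edgeR interaction at the cutoffs of the report. Levels particular to the chromosomes of Δfne or wild type enter this difference and cannot be told apart from a dependence on FNE. The values that follow are interaction log2 values, positive where ΔfneΔrbp9 against Δfne was the higher of both changes. Among the granule RNAs, mimi had −1.61, Dop2R −1.89, CG34195 −2.44, fbp 0.86 and ZnT41F 0.74. lectin-28C, of the granule proteins, had 1.22. ari-2 had 1.55, Gart 1.24 and phr 4.65. Fat body and other genes that rose with them had positive values, with Fbp2 at 2.32, Fbp1 at 2.40, Lsp2 at 2.74, Lsp1alpha at 1.39, Lsp1beta at 1.68, Lsp1gamma at 2.03, Got1 at 0.56, tobi at 3.54, Jhbp5 at 1.92, CG7900 at 3.17 and CG12224 at 3.36.

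Odorant-binding genes split, with Obp99a at 2.82, Obp99b at 1.20, Obp59a at −0.77 and Obp49a at −0.70. Detoxification genes split as well, with Cyp6a23 at 2.74, Cyp28d1 at 0.96, Cyp12c1 at 0.87, Cyp6a17 at −7.24, Ugt36E1 at 3.14, Ugt302K1 at 2.35 and GstE4 at 0.90. Cyp12d1-d had −11.35, a fitted value that depends on the prior count because 2 groups had no counts. Immune genes had 0.59 (BomS6), 1.03 (BomT2), −3.11 (Tep4) and 0.54 (Tep2), and cuticle genes −1.11 (Lcp65Ac) and −0.96 (Cpr62Bc). Among peptide signalling genes the values were positive, with Ilp6 at 0.91, FMRFa at 0.93, SIFaR at 0.54 and Lgr4 at 1.06. The remaining genes were lower, with IFT54 at −2.23, AANATL2 at −0.78, snRNA:U2:34ABa at −1.41 and lncRNA:CR45115 at −1.997.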

How the results depend on the processing

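Dropping the fold limit moved each count most: 2010 genes in ΔfneΔrbp9 against Δfne, 1680 in Δrbp9 against wild type, 1749 for the interaction and 423 in the same direction in both contrasts. Every other setting kept the count of 718 between 565 (mean normalized count above 50) and 897 (adjusted p below 0.05). Leaving out 1 library gave 663 to 706, 602 to 748, 863 to 995 and 131 to 155 genes for the same 4 counts. DESeq2 called 739 genes, 702 of them shared with the 718, and leaving out both libraries numbered 5, chosen after seeing the data, called 688. Of the 84 called genes that the text names, 73 kept their call in every setting that tested them (Cyp12d1-d, Ugt302K1 and Gpb5 were not tested at a mean above 50), and none of the 84 changed sign. Beyond the losses given beside the results, Pburs, Act87E, Hsp70Ba and Nplp4 lost their calls with all 4 genotypes in one fit (edgeR adjusted p of 0.0141, 0.0219, 0.0141 and 0.0237), Cpr62Bc and CCAP-R with the sex-mix covariate (log2 fold changes of −0.46 and −0.50), and Nplp4, CCAP-R and Gnmt without both libraries numbered 5.

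Replicate numbers appear in every genotype. Deviations of same-numbered ΔfneΔrbp9 and Δfne libraries had r of 0.11, 0.09, 0.07, 0.18 and 0.57 for numbers 1 to 5. The 2 libraries numbered 5 thus deviated together, and both had high midgut markers (404 CPM in Δfne and 228 CPM in ΔfneΔrbp9). Whether they share a batch is not given by the labels and was not tested. The other numbers gave no pairing, and the main fits used none. With the replicate block 726 genes were called, 673 of them shared with the 718, and 586, 916 and 130 for the other 3 counts.

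Sign changed for 5 uncalled genes close to 0. Without both libraries numbered 5, log2 fold changes were 0.017 for ple, 0.011 for apolpp and −0.0078 for brp. With the replicate block apolpp had 0.012. Dop1R2 had 0.0025 with DESeq2 size factors and 0.0033 with DESeq2. Over the fits that left out 1 library, values ranged from −0.021 to 0.061 for fne, −0.044 to 0.034 for Dop1R2, −0.13 to 0.032 for ple, −0.18 to 0.18 for apolpp and −0.0099 to 0.058 for brp.

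Total counts of 10289950 or more leave genes near a mean count of 10 with few reads, and fold changes there are the least precise.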
